A study of Drosophila melanogaster with 14 samples.

Results

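Acyp and Acyp2 are the 2 genes of Drosophila melanogaster whose names mark them as acylphosphatases, and they were taken by gene symbol from the 16078 genes that could be followed through every testis library. Both passed the filter on low values, which left 12971 genes. Acyp was chosen because its level had already been seen to be low in CG9879, can and mip40 mutants, so its levels are given as a description, without a test against wild type or between mutants. Acyp2 was not chosen by its values and was tested in every comparison.

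Acylphosphatases are small, stable enzymes that cleave the bond between a carboxyl group and a phosphate. Their known substrates include 1,3-bisphosphoglycerate, the high-energy intermediate of glycolysis that glyceraldehyde-3-phosphate dehydrogenase makes and phosphoglycerate kinase uses, and the phosphorylated aspartate that P-type ion pumps form during their cycle. In mammals the family has a muscle type and a common type. Drosophila spermatocytes turn on a large set of genes used in the testis and in few other places, including testis forms of several enzymes of sugar metabolism.

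The samples were polyadenylated RNA of whole adult testes from 3-day-old males kept at 23 °C, 50 testes to a library and 2 biological replicates to each of 7 genotypes. Wild type (wt) was compared with mutants of 5 genes, CG9879, mip40, can, comr and bam. A double mutant, mip40/bam, was set against bam because both carry the bam mutation. Testes of bam mutants fill with spermatogonia, the dividing early germ cells. The products of comr and mip40 belong to the testis chromatin complex tMAC, and can codes for a TBP-associated factor used in the testis. Germ cells of comr and can mutants stop as spermatocytes. Alleles and the wild-type strain were not given in the sources used here. In whole testes, fewer cells of a type and less RNA per cell cannot be told apart.

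Levels are FPKM, fragment numbers divided by the length of the transcript and the size of the library, as the authors deposited them. The intervals of the deposited values implied about 4040000 to 13930000 fragments per library. The transcript of CG9879 itself stood at 64.0 and 53.4 FPKM in wt and at 0.756 and 1.30 FPKM in the libraries labelled CG9879. Genes listed as spermatid markers (9 of 9 matched) summed to 26070 and 27400 FPKM in wt and to 27940 and 29384 FPKM in CG9879. The same markers summed to 3928 to 8664 FPKM in can, comr and mip40 and to 0.929 to 20.5 FPKM in bam and mip40/bam. In comr, whose germ cells stop as spermatocytes, the sum was 7263 and 6678 FPKM, so it does not measure late spermatids alone. Markers of the accessory gland (20 of 22 matched), an organ joined to the male tract, made up 6.02% of the summed FPKM in comr replicate 2, 1.81% in CG9879 replicate 2, 1.22% in can replicate 1 and 0.981% in wt replicate 1, against at most 0.119% in the other 10 libraries.

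Acyp (FBgn0025115) lies at 2L:13912083-13912652 on the plus strand of the BDGP6 build. It has 1 exon of 570 bases, with a coding part of 120 codons, and no other annotated gene shares its exon. Acyp2 (FBgn0038363) lies on another chromosome, at 3R:15792688-15793487 on the plus strand, and has 4 exons, a longest transcript of 619 bases and a coding part of 102 codons. It too shares no exon with another gene. In the annotation these are separate genes of different exon structure, 1 without introns and 1 with them.

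Acyp was abundant in wild-type testes and near or at 0 in every mutant. In wt it stood at 164 FPKM in replicate 1 (authors' interval 142 to 186) and 143 FPKM in replicate 2 (124 to 162). In can it stood at 2.69 and 2.58 FPKM. In CG9879 it stood at 1.81 and 4.47 FPKM. In comr it stood at 0.576 FPKM in replicate 1 and was listed at 0 in replicate 2. In mip40 it stood at 0.616 FPKM in replicate 1 and was listed at 0 in replicate 2. Both bam libraries and both mip40/bam libraries listed it at 0. The 2 wt libraries were the only ones above 5 FPKM, and no mutant library came near them.

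The lowest wt library was 53.3 times the higher can library and 32.0 times the higher CG9879 library. The ratio of group means was 58.2 for wt over can and 48.9 for wt over CG9879. No fold is given for the groups with a library at 0. The mutant values rest on few fragments: the intervals imply about 5.9 and 4.2 fragments in can and 1.5 and 5.1 in CG9879, against about 221 and 222 in wt. The intervals of can and CG9879 therefore overlap, and at this depth an order between these mutants, or a difference between the mutants near 0, was not detectable. With so few fragments a listed 0 does not show absence of the transcript.

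**Figure D1:**
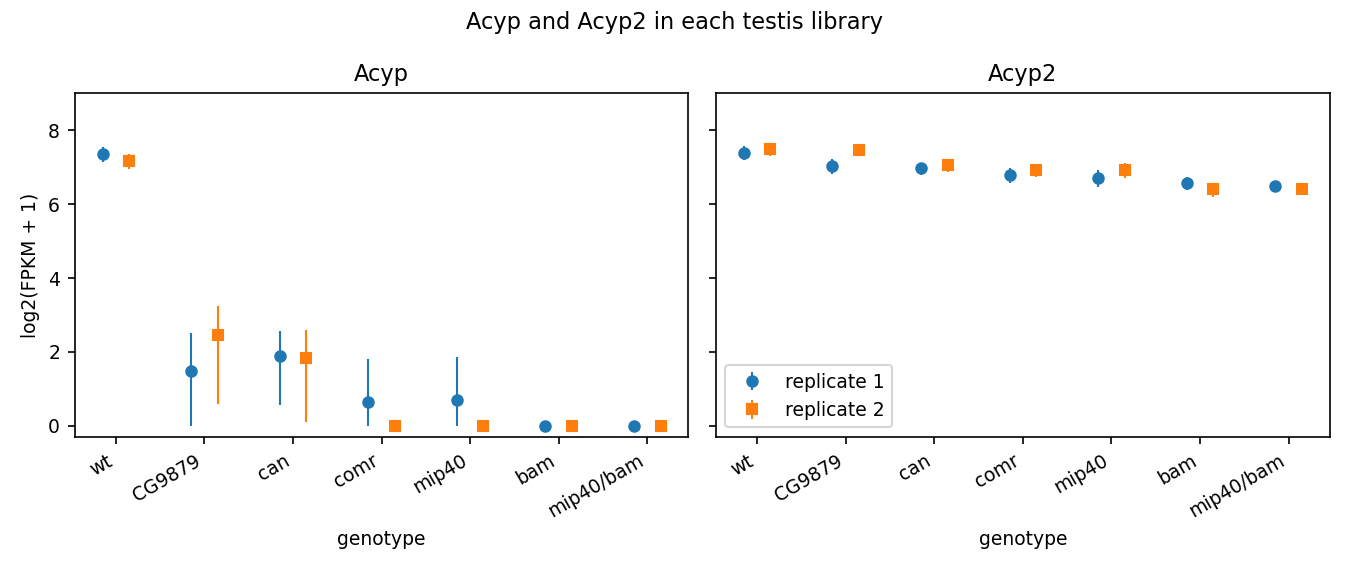
log2(FPKM + 1) of Acyp (left) and Acyp2 (right) in each of 14 testis libraries by genotype, with circles for replicate 1, squares for replicate 2 and bars for the authors' intervals. Acyp is near 7 in both wt libraries and under 3 in all 12 mutant libraries, while Acyp2 stays above 6 in all 14.

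Acyp was low in CG9879 testes, where the listed spermatid markers summed to about the wild-type level, and low in the mutants in which that sum was smaller. In dj, a gene of the sperm tail and mitochondrial derivative, wt had 1738 and 1860 FPKM and CG9879 1496 and 1643 FPKM. In w-cup, a gene transcribed late in spermatids, wt had 1377 and 1461 FPKM and CG9879 1322 and 1374 FPKM. Neither shows the gap seen in Acyp. Within wt, CG9879 and can the replicate with more accessory gland RNA had the higher Acyp value (164 against 143, 4.47 against 1.81 and 2.69 against 2.58 FPKM), and within comr it had the lower one (0 against 0.576 FPKM). The authors' intervals of the 2 replicates overlapped in wt, in CG9879 and in can, so no order between these replicates is drawn. wt replicate 2 had 0.0105% of its summed FPKM in accessory gland markers and 143 FPKM of Acyp. Whether cell makeup or accessory gland RNA bears on the level of Acyp was not tested.

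Genes with this shape were few. Of 5885 genes with at least 10 FPKM in both wt libraries, 49 (0.833%) were at least 10 times lower in both CG9879 libraries, and 29 of those 49 were listed at 0 there. The CG9879 and mip40/bam tables were made with another annotation than the wt table, though Acyp has the same start and end in both. Only 10 of the 5885 genes were at least 10 times lower in each of the 12 mutant libraries, a shape chosen after the values were seen. Of those 10, Acyp had the highest wt level, followed by a non-coding RNA gene, CR45022, at 76.3 FPKM in its higher wt library. Arr1, the arrestin of photoreceptors, was another of the 10, with 36.7 and 35.0 FPKM in wt and at most 1.34 FPKM in any mutant library. Sorted by its fitted difference of −5.30 on the log2(FPKM + 1) scale, Acyp was 15th from the lowest of the 12971 genes in CG9879 against wt. In can against wt, with −5.41 on the same scale, it was 62nd. Acyp was chosen for its low values in these mutants, so the ranks follow from that choice and are only a description.

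**Figure D2:**
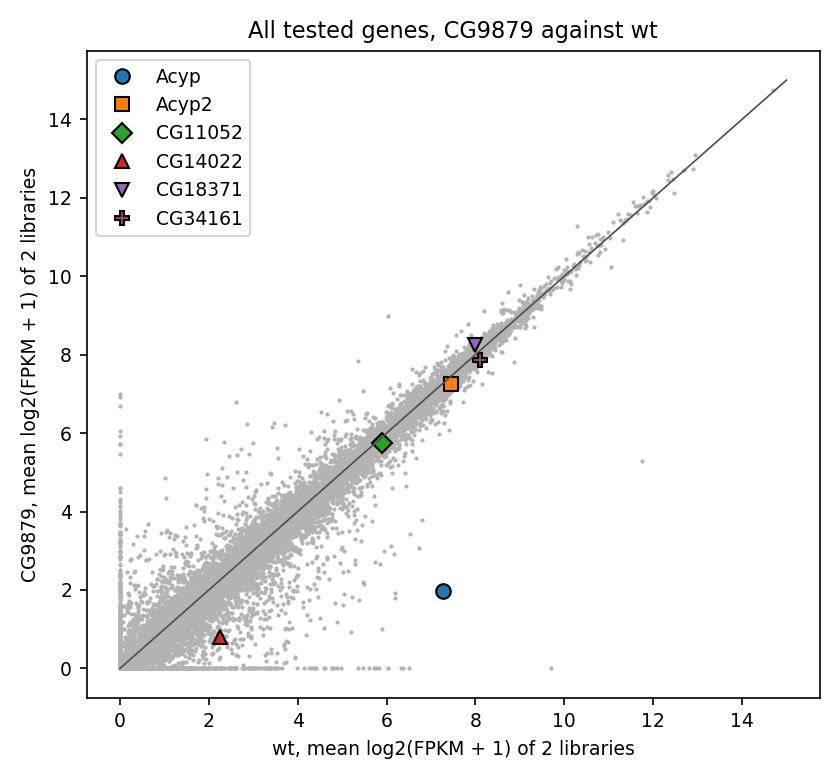
Mean log2(FPKM + 1) in CG9879 (vertical) against wt (horizontal), each over 2 libraries, for all 12971 tested genes in grey, with the line of equal level and 6 acylphosphatase-family genes marked. Acyp lies far under the line, and Acyp2, CG11052, CG18371 and CG34161 lie close to it.

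The only comparison of Acyp that its choice did not use was mip40/bam against bam. All 4 libraries listed it at 0, so no difference could be measured and no test is drawn from it.

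Acyp2 was present in every library at levels of the same order as Acyp in wild type. It stood at 168 and 179 FPKM in wt (174 ± 8.04, SD, n = 2) and at 130 and 177 FPKM in CG9879 (154 ± 33.3). It stood at 125 and 132 FPKM in can (128 ± 5.08), at 109 and 121 FPKM in comr (115 ± 8.19) and at 104 and 121 FPKM in mip40 (113 ± 11.8). The lowest groups were bam, at 94.8 and 83.7 FPKM (89.2 ± 7.85), and mip40/bam, at 89.1 and 84.3 FPKM (86.7 ± 3.40). In this order the libraries of neighbouring groups overlapped between wt and CG9879, CG9879 and can, comr and mip40, and bam and mip40/bam. They did not overlap between can and comr, where the gap was small, nor between mip40 and bam.

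Acyp2 fell in 4 of the 5 mutants set against wt, in comparisons that share the wt libraries. Differences are given as log2 differences of FPKM + 1, tested with limma and Benjamini-Hochberg adjustment over 12971 genes. It fell by 0.96 in bam (SE 0.14, adjusted p = 0.000133), with both bam libraries under both wt libraries, in a comparison that called 78.6% of all genes, 34.4% as lower. As many as 76.4% of genes were called in comr, 73.2% in mip40 and 71.4% in can. It fell by 0.63 in mip40 (SE 0.14, adjusted p = 0.00251), where 25.4% of genes were called lower, and by 0.59 in comr (SE 0.14, adjusted p = 0.00331), where 27.9% were. It fell by 0.43 in can (SE 0.14, adjusted p = 0.0184), where 20.4% were called lower. In each of these 3 mutants too, both libraries lay under both of wt. The can call was lost without can replicate 1 (−0.39), without wt replicate 2 (−0.39) and without the 4 libraries with most accessory gland RNA (−0.44). Those fits leave 1 library in can, in wt or in both, and the difference stayed near the −0.43 of all libraries.

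In CG9879 the Acyp2 difference from wt was −0.19 (SE 0.14, 95% interval −0.50 to 0.12, adjusted p = 0.463, limma), in a comparison that called 11.5% of genes, 7.24% as lower. CG9879 replicate 1 lay under both wt libraries and replicate 2 between them. CG9879 replicate 2 also held more accessory gland RNA than replicate 1 (1.81% against 0.0247%). Without CG9879 replicate 2 the difference was −0.41, and without the 4 libraries with most accessory gland RNA it was −0.46, larger in size but not called. The first of these fits leaves 1 library in CG9879, and the other leaves 1 library each in CG9879 and wt. In CG9879 the level of Acyp was 0.0139 and 0.0252 times that of Acyp2, against 0.974 and 0.798 times in wt and 0.0215 and 0.0196 times in can. FPKM is scaled by length, so these ratios set levels of the genes side by side.

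Among comr, can and mip40 no difference in Acyp2 passed the threshold. The difference was −0.16 for comr against can (SE 0.14, 95% interval −0.47 to 0.16, adjusted p = 0.385, limma). It was −0.04 for mip40 against comr (95% interval −0.35 to 0.28, adjusted p = 0.907) and −0.19 for mip40 against can (95% interval −0.51 to 0.12, adjusted p = 0.287). These comparisons called 54.7%, 45.6% and 51.6% of all genes. For mip40/bam against bam, which called 36.1% of all genes, the difference was −0.04 (95% interval −0.35 to 0.28, adjusted p = 1). The difference of Acyp2 between mip40 and wt was lower than that between mip40/bam and bam by −0.59 (SE 0.20, adjusted p = 0.0237 for the interaction, limma), where 70.0% of all genes were called. With quantile normalization the call was lost, with equal summed FPKM the sign turned, and with median-of-ratios scaling the value was −1.73 (adjusted p = 0.000122, limma).

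How far Acyp2 fell depends on what it is measured against. In bam, comr, can and mip40 the genes with a mean of at least 10 FPKM in both groups had a median difference from wt of 0.84, 1.09, 0.65 and 0.77 (log2), so most well-expressed genes read higher. Relative to that median Acyp2 was at −1.79 in bam, −1.08 in can, −1.39 in mip40 and −1.68 in comr. Median-of-ratios scaling moved these genes by −1.10 in bam, −1.16 in can, −1.09 in mip40 and −1.21 in comr. With it the Acyp2 difference was −2.08 in bam, −1.61 in can, −1.73 in mip40 and −1.82 in comr. In CG9879 that scaling left −0.17, close to the value on deposited FPKM. The direction was lower in all 4 of these mutants under each of the 4 scalings, and the size ranged over more than 1 log2 unit. The bam call was lost with quantile normalization (−0.28, adjusted p = 0.101), and those of can (−0.27, adjusted p = 0.118) and mip40 (−0.32, adjusted p = 0.0635) with equal summed FPKM, all by limma.

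**Figure D3:**
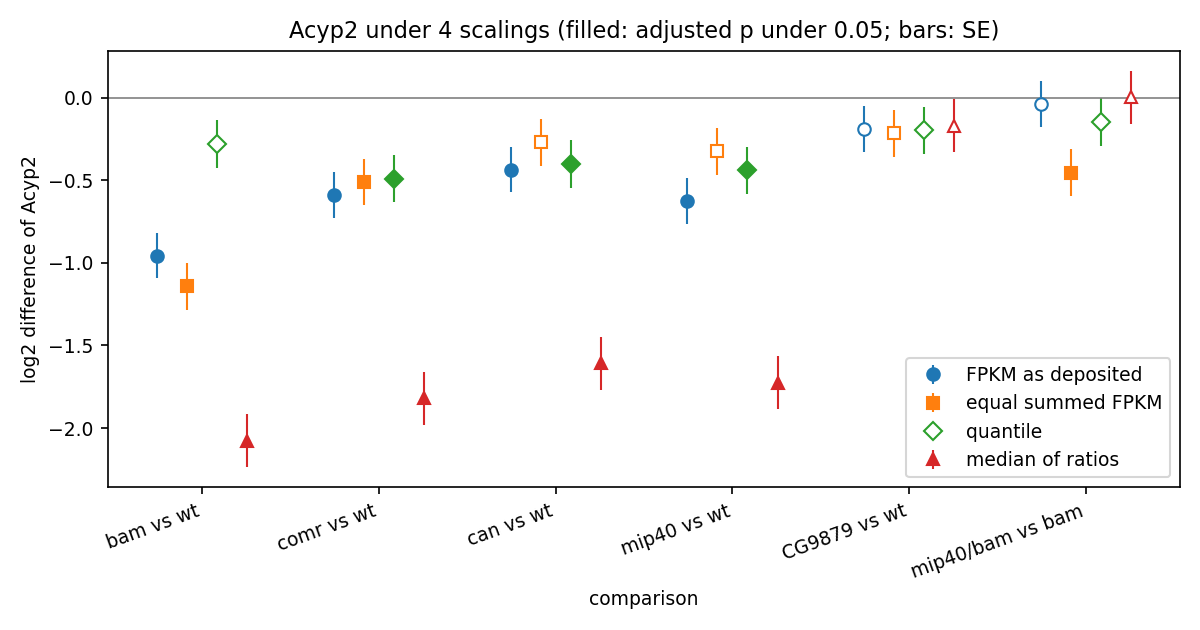
Log2 difference of Acyp2 in 6 comparisons under 4 scalings of the FPKM values, with bars for the standard error and filled symbols for an adjusted p under 0.05. Median-of-ratios scaling gives −1.61 to −2.08 in bam, comr, can and mip40 against wt, and all scalings lie near −0.2 in CG9879.

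The authors' deposited tables of 6 comparisons give values per transcript on the older build dm3, where each gene has 1 listed transcript. For Acyp (CG16870-RA, 2L:13912201-13912563, 363 bases) the authors' deposited table values for wt were 106 FPKM beside bam, 79.9 beside CG9879, 105 beside can, 107 beside comr and 103 beside mip40. The authors' deposited tables give can as 1.08 FPKM and bam, CG9879, comr and mip40 as exactly 1 with a test statistic that is no number. In those authors' deposited tables between 630 and 2042 mutant values are exactly 1, and no transcript with a completed test has a mutant value of 0. The exact 1 of Acyp is therefore read here as a stand-in for a low or zero value, and no fold is drawn from it. The authors' deposited table of mip40/bam against bam lists Acyp at 0 in both and did not test it.

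For Acyp2 (CG18505-RA) the authors' deposited tables give 298 FPKM in wt against 82.8 in bam, a log2 fold change of −1.85 with q = 0.000197. The authors' deposited tables give −1.64 in comr (q = 0.000253), −1.51 in mip40 (q = 0.000207) and −1.20 in can (q = 0.000214), all marked significant. In CG9879 the authors' deposited table gives 223 FPKM in wt and 219 in CG9879, with q = 0.989. For mip40/bam against bam the authors' deposited table gives 91.4 against 129 FPKM, with q = 0.0729. The order bam, comr, mip40, can in these tables differs from that of the per-library FPKM only in comr and mip40, whose libraries overlapped there. Shares of transcripts marked significant in these authors' deposited tables were 44.2% for bam, 39.8% for comr, 47.1% for mip40, 42.7% for can, 1.58% for CG9879 and 31.4% for mip40/bam.

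4 further genes, CG11052, CG14022, CG18371 and CG34161, are counted here with the acylphosphatase family from general knowledge, since neither the files nor the annotation used name their products. All 4 passed the filter. CG18371 and CG34161 were as abundant in wt as the named members. CG18371 (2R:14028620-14029096, plus strand, 1 exon) stood at 259 and 247 FPKM in wt and at 292 and 317 FPKM in CG9879. It stood at 86.3 and 100.4 FPKM in can, 82.8 and 89.2 FPKM in mip40, 2.61 and 0.878 FPKM in comr, and at most 0.335 FPKM in bam and mip40/bam. CG34161 (2L:10580957-10581702, minus strand, 4 exons) stood at 272 and 277 FPKM in wt, 224 and 244 FPKM in CG9879, 59.7 and 61.0 FPKM in can and 5.98 and 5.82 FPKM in mip40, and was listed at 0 in both comr libraries. Both genes were high in CG9879, where Acyp was not.

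In can and mip40 these genes fell by different amounts. CG18371 was lower than wt by −1.43 in can (SE 0.27, adjusted p = 0.000915, limma) and by −1.54 in mip40 (SE 0.27, adjusted p = 0.00052), all log2 differences of FPKM + 1. CG34161 was lower by −2.17 in can (SE 0.14, adjusted p = 8.39e-07, limma) and by −5.32 in mip40 (SE 0.14, adjusted p = 3.39e-09). In CG9879 the differences were 0.27 for CG18371 (adjusted p = 0.624, limma) and −0.23 for CG34161 (adjusted p = 0.371).

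CG11052 (3R:8008249-8009297, minus strand) was highest in comr, can and mip40 on deposited FPKM. It stood at 62.4 and 54.5 FPKM in wt and was higher in comr (156 and 166 FPKM), can (143 and 122 FPKM) and mip40 (129 and 115 FPKM), by 1.45, 1.16 and 1.05 on the log2 scale (adjusted p = 0.000484, 0.00223 and 0.00387, limma). With median-of-ratios scaling these were 0.22, −0.0049 and −0.045 and none was called. It stood at 11.9 and 5.63 FPKM in bam, a fall of 2.68 on the log2 scale (adjusted p = 5.2e-06, limma), and at 17.7 and 19.6 FPKM in mip40/bam. That was higher than bam by 1.08 (adjusted p = 0.00805, limma), the only family gene called in that comparison. The mip40/bam tables used another annotation than those of bam, so annotation and genotype cannot be told apart in this difference. The authors' deposited tables do not mark CG11052 as significant there (q = 0.0574), nor in comr (q = 0.116), can (q = 0.147) or mip40 (q = 0.352). They do mark its fall in bam (q = 0.000197). CG14022 (2L:5327975-5328879, minus strand) was low throughout, with 3.71 and 3.77 FPKM in wt and 0.325 to 5.77 FPKM elsewhere.

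Of these 4 genes, 3 were called lower and 0 higher in bam. The count for comr was 2 lower and 1 higher, for can 3 and 1, and for mip40 2 and 1. Over all genes tested, 44.2% were called higher in bam, 48.5% in comr, 51.0% in can, 47.8% in mip40, 16.4% in mip40/bam against bam and 4.26% in CG9879. Called lower were 34.4% in bam, 27.9% in comr, 20.4% in can, 25.4% in mip40, 19.7% in mip40/bam against bam and 7.24% in CG9879. In CG9879 none of the 4 passed the threshold (limma), where 11.5% of all genes did, and 1 of the 4 did at an unadjusted p under 0.05. That gene was CG14022, at −1.45 (adjusted p = 0.0813), which was called with median-of-ratios scaling (−1.72, adjusted p = 0.0289). The median of the 4 differences in CG9879 was −0.19, against 0 over all genes tested.

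**Figure D4:**
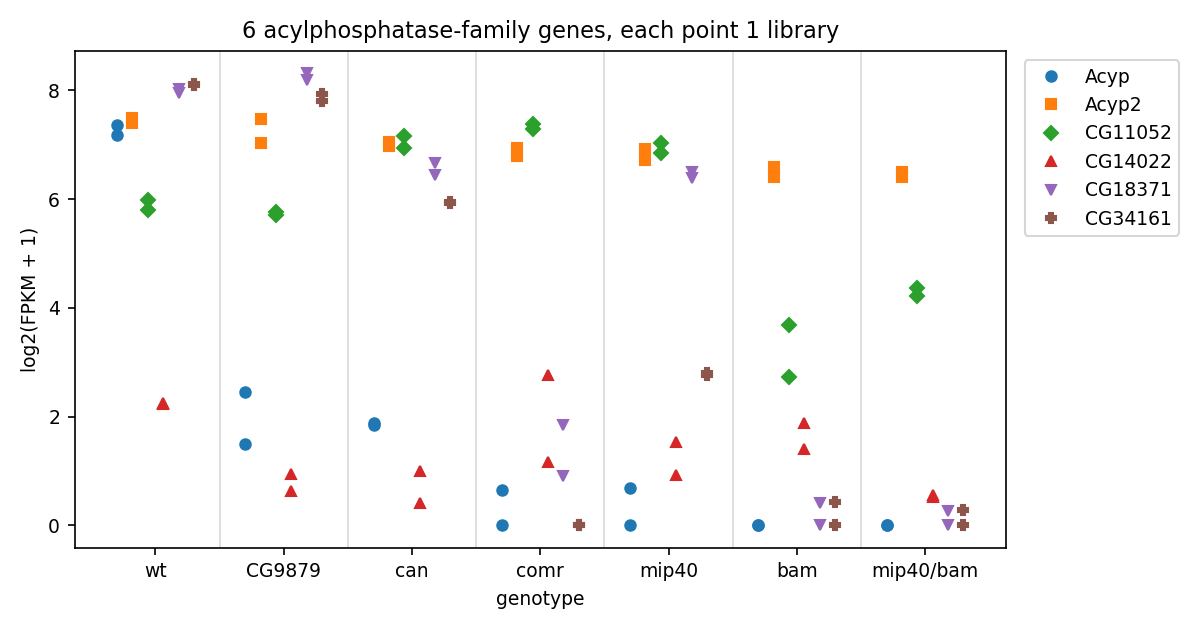
log2(FPKM + 1) of 6 acylphosphatase-family genes by genotype, each point 1 library. In CG9879 Acyp (1.81 and 4.47 FPKM) lies low beside CG18371 and CG34161, which keep 224 to 317 FPKM, and Acyp2 is the only one of the 6 above 80 FPKM in all 14 libraries.

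The pathway that makes and uses the substrate 1,3-bisphosphoglycerate was followed through 24 genes of glycolysis, listed from general knowledge and all tested. More of them were called lower than higher in bam, comr, mip40 and can, and 0 of them in CG9879. In bam 7 were higher and 16 lower (median −2.90 on the log2 scale, against 0.21 over all genes tested). In comr 6 were higher and 14 lower (median −1.93 against 0.59), in mip40 5 and 14 (median −1.49 against 0.46), and in can 5 and 14 (median −0.97 against 0.62). Over all genes tested, the shares called higher and lower were 44.2% and 34.4% in bam and 48.5% and 27.9% in comr. They were 47.8% and 25.4% in mip40 and 51.0% and 20.4% in can. With median-of-ratios scaling the counts of glycolysis genes became 1 and 19 in comr, 1 and 21 in mip40 and 3 and 18 in can. They stayed at 7 and 16 in bam. In CG9879 0 of 24 were called, against 11.5% of all genes (limma, median 0.03 against 0), 1 was past an unadjusted p of 0.05, and 1 was called higher with median-of-ratios scaling. Both counts hold Gapdh2, another glyceraldehyde-3-phosphate dehydrogenase gene, at 0.50 (adjusted p = 0.0656), and at 0.53 with that scaling (adjusted p = 0.0291). In mip40/bam against bam 5 of 24 were higher and 1 lower, where 16.4% of all genes were called higher and 19.7% lower.

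The 3 glycolysis genes with the highest wt levels were CG12229, Pglym87 and Hex-t2. Pglym87, a phosphoglycerate mutase, stood at 386 and 419 FPKM in wt, 380 and 415 FPKM in CG9879, 85.9 and 90.6 FPKM in can and 45.3 and 61.5 FPKM in mip40. It was at most 0.369 FPKM in comr, bam and mip40/bam. Hex-t2, a testis hexokinase, had a mean of 399 FPKM in wt and 410 FPKM in CG9879, and of 69.9 FPKM in can, 85.1 FPKM in mip40 and 6.32 FPKM in comr. CG12229, listed as a pyruvate kinase form from general knowledge, had a mean of 413 FPKM in wt and was listed at 0 in comr, mip40, bam and mip40/bam.

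Among genes for the enzymes on either side of the substrate, Gapdh1, Gapdh2 and Pgk rose in bam and CG9961 fell. Gapdh1, a glyceraldehyde-3-phosphate dehydrogenase that makes 1,3-bisphosphoglycerate, stood at 21.9 and 23.9 FPKM in wt and at 178 and 195 FPKM in bam, higher by 2.97 on the log2 scale (adjusted p = 1.5e-09, limma). Pgk, the phosphoglycerate kinase that uses it, stood at 14.3 and 14.6 FPKM in wt and at 115 and 126 FPKM in bam, also higher by 2.97 (adjusted p = 1.2e-09, limma). In comr Gapdh1 was higher by 1.50 and Pgk by 1.29 on deposited FPKM, and by 0.29 and 0.11 with median-of-ratios scaling. In mip40 Pgk turned from 0.61 to −0.45 under that scaling. CG9961, another phosphoglycerate kinase gene, was at 125 and 157 FPKM in wt, 115 and 128 FPKM in CG9879, and at most 8.32 FPKM in bam and mip40/bam. In bam CG9961 stood at 7.36 FPKM in replicate 1 and was listed at 0 in replicate 2. Its difference of −5.61 on the log2 scale (SE 0.74, adjusted p = 6.78e-05, limma) takes in that 0, so its size is uncertain. Gapdh2 was higher in bam by 2.16 (SE 0.15, adjusted p = 5.11e-07, limma). Exons of Pgk, CG9961 and CG12229 overlap those of other genes, so their values are less certain.

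The other textbook substrate, the aspartyl phosphate of P-type pumps, was followed through 13 such genes, of which 11 were matched and tested. In bam 7 were higher and 4 lower, in comr 5 and 5, in can 6 and 3 and in mip40 5 and 3. Over all genes tested the shares called higher and lower were 51.0% and 20.4% for can, 47.8% and 25.4% for mip40, 44.2% and 34.4% for bam, and 48.5% and 27.9% for comr, so the counts of higher genes in comr, can and mip40 lie near the background. Median-of-ratios scaling turned the balance, with 4 higher and 7 lower in bam. It gave 1 higher and 9 lower for comr, 0 and 7 for can, and 1 and 7 for mip40. In CG9879 0 of 11 passed the threshold by limma with either scaling, where 11.5% of all genes did on deposited FPKM, and 1 was past an unadjusted p of 0.05. In mip40/bam against bam 6 were lower and 0 higher, where 19.7% of genes were called lower. The 3 with the highest wt levels differed. ATP7, a copper pump, had 101 and 98.9 FPKM in wt, 82.7 and 102.6 FPKM in can, 87.4 and 96.4 FPKM in mip40, and 14.9 and 18.5 FPKM in bam, lower in bam by −2.52 on the log2 scale (SE 0.12, adjusted p = 3.14e-08, limma). Ca-P60A, the calcium pump of the endoplasmic reticulum, had 79.8 and 92.6 FPKM in wt, 172 and 198 FPKM in can, 168 and 158 FPKM in mip40, and 148 and 147 FPKM in bam. It was higher by 1.09 in can, 0.92 in mip40 and 0.77 in bam on that scale (adjusted p = 2.74e-06, 8e-06 and 2.11e-05, limma), against −0.08, −0.18 and −0.34 with median-of-ratios scaling. JYalpha, a testis sodium pump subunit needed for male fertility, stood at 84.0 and 85.1 FPKM in wt, 76.8 and 82.7 FPKM in CG9879, 53.9 and 56.3 FPKM in can and 18.1 and 18.9 FPKM in mip40. It was at most 0.184 FPKM in comr, bam and mip40/bam. Exons of ATP7 overlap those of Nrd1 and exons of Ca-P60A those of CG2812, so values of these pumps are less certain.

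Of the nearest 2 genes on each side of Acyp, only Ance was above 2 FPKM in any library. Ance-2 ends 363 bases and Ance 2870 bases to its left, and Ance-3 starts 2072 bases and CG16886 8054 bases to its right. Ance, an angiotensin-converting enzyme homologue, stood at 34.7 and 36.3 FPKM in wt and at 89.6 and 98.5 FPKM in CG9879, higher by 1.38 on the log2 scale (SE 0.14, adjusted p = 0.000299, limma). In bam it was lower than in wt, at 4.37 and 5.36 FPKM, and in mip40/bam it stood at 28.1 and 29.1 FPKM. The CG9879 and mip40/bam tables used another annotation than those of wt and bam. Annotation and genotype cannot be told apart in the differences of Ance between CG9879 and wt and between mip40/bam and bam. The tables of wt, bam, comr, can and mip40 shared their annotation. Among these Ance had means of 35.5 FPKM in wt, 27.3 in mip40, 13.4 in can, 8.71 in comr and 4.86 in bam. Ance-2 had 0.644 and 0.915 FPKM in wt and at least 0.586 FPKM in both CG9879 libraries. Ance-3 had 0.936 and 0.875 FPKM in wt and at most 0.424 FPKM in the mutants, the same direction as Acyp at a level near 0. CG16886 was under 1 FPKM in all 14 libraries.

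Of the neighbours of Acyp2, c(3)G and nsl1 rose in bam and CG9593 was called lower in comr, can, mip40 and CG9879. c(3)G, which encodes a part of the synaptonemal complex, lies 108 bases to its left on the opposite strand. It stood at 86.8 and 88.2 FPKM in bam and at 4.11 and 4.88 FPKM in wt, higher by 4.01 (SE 0.60, adjusted p = 0.000175, limma), the direction opposite to Acyp2. nsl1, 294 bases to the right, stood at 51.2 and 54.1 FPKM in bam and 8.34 and 8.60 FPKM in wt, higher by 2.50 (SE 0.11, adjusted p = 1.35e-08, limma). CG9589, 3193 bases to the left, stood at 101 and 104 FPKM in wt, 137 and 156 FPKM in CG9879 and 30.1 and 35.3 FPKM in can, and was listed at 0 in comr, mip40, bam and mip40/bam. Its exon overlaps one of c(3)G, so values of both are uncertain. CG9593, 8787 bases to the right, had 9.26 and 6.19 FPKM in wt and 2.21 and 2.62 FPKM in mip40/bam. It was lower than wt by −0.79 in comr, −0.86 in can, −0.46 in mip40 and −0.72 in CG9879 (adjusted p = 0.00182, 0.0013, 0.034 and 0.0259, limma). An exon of CG9593 overlaps one of asRNA:CR45891, so its values too are uncertain. The CG9879 values rest on about 18.1 and 21.9 implied fragments. Annotation and genotype cannot be told apart in its difference between CG9879 and wt.

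Among 9540 genes with at least 10 FPKM in at least 2 libraries, the 5 whose log2(FPKM + 1) followed Acyp most closely over the 14 libraries were CR43422 (Pearson r = 0.985), CR44344 (0.985), CG12017 (0.978), CR45334 (0.976) and CR43621 (0.968). The points share libraries and genotypes, and the likeness rests on the 2 wt libraries standing above the rest. 4 of these 5 are annotated as non-coding RNAs. CR43621 stood at 40.6 and 41.1 FPKM in wt, 4.23 and 4.35 FPKM in can and 1.54 and 3.39 FPKM in CG9879, and was listed at 0 in bam and mip40/bam. CG12017 stood at 12.1 and 12.5 FPKM in wt and at most 0.622 FPKM in any mutant.

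The 5 genes most like Acyp2 were CG32006 (r = 0.957), CG31730 (0.948), CG12963 (0.947), CG30429 (0.944) and CG31874 (0.940). All 5 were highest in wt, followed by CG9879 and can in group means, with a far wider range than Acyp2. CG31730 stood at 201 and 202 FPKM in wt, 154 and 173 FPKM in CG9879, 15.7 and 16.3 FPKM in can and 0 and 0.193 FPKM in mip40/bam. Across the same genotypes Acyp2 went from 174 to 86.7 FPKM in group means.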

How the data were processed

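Polyadenylated RNA was prepared with the TruSeq kit and sequenced on a MiSeq, per the labels. TopHat, Cufflinks and Cuffdiff and the builds dm3 and dm6 are named in the submitters' processing notes, with no version. Strand use was not given in the sources used here. Deposited by the authors were FPKM per gene with an interval for each of 14 libraries (BDGP6), and 6 comparison tables per transcript with FPKM, log2 fold changes, p-values and q-values (BDGP5). No count table was used. FPKM divides by the whole library, so abundant genes lower all others.

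The tables were joined by symbol: 10 libraries used symbols as identifiers (16745 genes) and the 4 of CG9879 and mip40/bam used FBgn numbers (17480 genes), which left 16078 genes. Annotation and genotype cannot be told apart where wt is set against CG9879 or bam against mip40/bam. Fragment numbers were worked out from the interval widths and are approximate. They and the intervals do not cover the spread between replicates. Implied numbers need not be whole and can lie under 1, as for Acyp in comr replicate 1 and mip40 replicate 1 (0.4 in each). The intervals therefore need not reflect counting error alone, and the implied numbers may be too low.

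The filter asked for FPKM of 1 or more in 2 or more libraries. On log2(FPKM + 1), limma 3.58.1 (R 4.3.3) was run with trend, all 14 libraries and 7 groups in 1 model (residual degrees of freedom 7, prior 1.82), two-sided, with Benjamini-Hochberg adjustment within each comparison and a threshold of 0.05. The fit was tested on simulated data. Fold changes on this scale understate those of low genes. Python 3.11.15, numpy 2.4.6, pandas 2.3.3 and matplotlib 3.10.9 made tables and plots. The alternatives tried were another pseudocount (0.1), no filter, 3 scalings, a replicate block, only the groups compared, and leaving out libraries.

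The members, lists and named genes were chosen with earlier results of these data known. Named genes were Acyp, Acyp2, the other family genes, the 3 highest in wt of each list with Gapdh1, Gapdh2, Pgk and CG9961, the nearest genes on each side, and the 5 most like each member. dj, w-cup, Arr1, CR45022 and CG9879 are context outside this rule. Replicates are biological per the labels, which do not say from which crosses or days they came. No sequences are printed.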

Additional observations from a re-analysis of the deposited data

Results flagged for a closer look

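The difference of Acyp2 between mip40 and wt and that between mip40/bam and bam were not equal on deposited FPKM. The interaction was −0.59 on the log2 scale (SE 0.20, adjusted p = 0.0237, limma). Of these groups only mip40/bam used the other annotation, and bam testes fill with spermatogonia. An unequal effect of the mip40 mutation cannot be told apart from these. The mip40 libraries stood at 104 and 121 FPKM against 168 and 179 FPKM in wt, and the mip40/bam libraries at 89.1 and 84.3 FPKM against 94.8 and 83.7 FPKM in bam. With equal summed FPKM the interaction was 0.13 (adjusted p = 0.589), and with median-of-ratios scaling it was −1.73. In the same interaction 70.0% of all genes were called.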

How the results depend on the processing

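Acyp2 was lower than wt in bam, comr, can and mip40 under every alternative run. Its call in bam was lost with quantile normalization (−0.28, adjusted p = 0.101, limma). With equal summed FPKM the calls in can (−0.27) and mip40 (−0.32) were lost, mip40/bam against bam was called (−0.45, adjusted p = 0.0324), and the interaction turned to 0.13. The interaction was also lost with quantile normalization (−0.29, adjusted p = 0.237). Leaving out each library in turn gave −0.48 to −0.39 for can and −0.69 to −0.48 for the interaction. The can call was lost without can replicate 1 or wt replicate 2, and the interaction without bam replicate 2, mip40 replicate 1, mip40/bam replicate 1 or wt replicate 2. Leaving out the 4 libraries richest in accessory gland RNA left 1 library each in wt, CG9879, can and comr. In that fit can was at −0.44 and not called. The difference in CG9879, not called in any alternative, ranged from −0.41 to 0.03 with 1 library left out and was −0.46 without those 4. The cause of these shifts was not tested. Genes called in CG9879 against wt numbered 1492, 325 with only the groups compared and 989 to 1524 when 1 library was left out, the lowest without wt replicate 1.

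Of the calls, the share that were higher changed with median-of-ratios scaling from 56.2% to 38.6% in bam, 63.5% to 38.9% in comr, 71.4% to 37.9% in can and 65.3% to 38.4% in mip40; in mip40/bam against bam it went from 45.4% to 18% with equal summed FPKM.

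Replicate numbers did not pair the samples: over 21 pairs of groups, same-numbered deviations correlated at −0.482 to 0.482 (median −0.014), above 0.1 in 4 pairs. With a replicate block Acyp2 kept its calls, at −0.96 in bam, −0.43 in can (adjusted p = 0.0161) and −0.59 for the interaction (adjusted p = 0.0207, limma), and 1395 genes were called in CG9879. The depth limits Acyp in the mutants, where no library implied 6 or more fragments.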
